A study of Mus musculus with 18 samples.

Results

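The genes described here are 10 genes of oxidative stress defence, read in fibroblasts sorted from neonatal mouse hearts. They are the superoxide dismutases Sod1, Sod2 and Sod3, the peroxide-removing enzymes Cat and Gpx3, the metallothioneins Mt1 and Mt2, and the enzymes Nqo1, Hmox1 and Txnrd1, which are commonly used as targets of the transcription factor Nrf2. They were chosen by function and found by symbol among the 55453 gene symbols of the count table. All 10 passed the filter on low counts, as did 16170 symbols in all.

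Superoxide dismutases turn superoxide into hydrogen peroxide, and catalase and the glutathione peroxidases then remove the peroxide. The family members work in different places. Sod1 acts in the cytosol, Sod2 in mitochondria and Cat mostly in peroxisomes, whereas Sod3 and Gpx3 are secreted. Metallothioneins are small cysteine-rich proteins that bind zinc and copper and are induced by metals, glucocorticoids and stress. Fibroblasts make much of the extracellular matrix of the heart, and mice lose the ability to rebuild injured heart muscle within days of birth.

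The bulk RNA sequencing comprised 6 groups with 3 libraries each, 18 in all. All came from C57BL/6J pups of the genotype Tcf21-MerCreMer/+; Rosa-mTmG/+ that had been given tamoxifen at P1, the day after the day of birth, so the controls carried the alleles and the agent too. GFP marks the lineage because Cre recombinase, expressed from Tcf21, switches a reporter from tdTomato to membrane GFP. The sort took GFP+ cells of the ventricles, from their apical portion. The P2 baseline and P10 baseline groups had no surgery and were collected at P2 and P10. In the P2 sham +3 days group the heart was exposed at P2, in the P2 resected +3 days group the apex was also cut off, and both were collected at P5. Surgery was done likewise at P10 for the P10 sham +3 days group and for the P10 resected +3 days group, which were collected at P13. The 3 P2 groups form the regenerative window and the 3 P10 groups the non-regenerative window, called the P2 window and the P10 window below. Sorting by a lineage label takes cells that expressed Tcf21 at P1 and their progeny, not all fibroblasts. Sex and the number of pups in a library are not given in the sources used here, and nothing says that the libraries of a group came from separate pups, so p-values measure only the spread between these libraries.

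Library totals ran from 10462737 to 22980554 counts. Levels are given as CPM, counts relative to a library's total after scaling by the trimmed mean of M-values (TMM). Differences are log2 fold changes from the quasi-likelihood test of edgeR, with p-values adjusted by Benjamini-Hochberg over all 16170 genes. A gene was called at an adjusted p under 0.05. The cell type label was checked against markers. The summed level of 8 fibroblast markers, Tcf21 and Pdgfra among them, was 39031 to 99680 CPM in every library, whereas 9 mural cell markers summed to 1167 to 2660 CPM, 12 cardiomyocyte markers to 176 to 1571 CPM, 15 macrophage markers to 7.76 to 1152 CPM and 9 endothelial markers to 176 to 497 CPM. The cardiomyocyte sum was 341 to 1571 CPM in the P2 window and 176 to 865 CPM in the P10 window, with 7 of the 12 markers called lower in the P10 window, beside 6.39% of all genes tested. Between the same windows the macrophage sum was 7.76 to 480 CPM and 20.2 to 1152 CPM, with 2 of 15 called higher, beside 7.11% of all genes tested. The sum of 7 erythroid markers was 25.0 to 308 CPM and 47.4 to 480 CPM, with 1 called higher. Estimates were above 0 for 13 of the 15 macrophage markers and for all 7 erythroid markers. The sum of 8 epicardial markers was 1.57 to 24.0 CPM and 0.0 to 57.4 CPM, and none of the 7 tested was called by edgeR. The part of these cells in the age differences below was not tested. In bulk samples, fewer cells of a type and less RNA per cell cannot be told apart.

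Over the whole set, 4 of the 10 genes were called between the windows, 3 of them higher in the P10 window (Sod3, Gpx3 and Mt1) and 1 lower (Nqo1). Of all genes tested, 7.11% were called higher and 6.39% lower in this comparison, which sets the mean of the 3 P10 groups against that of the 3 P2 groups. The median log2 fold change was 0.39 over the 10 genes and -0.06 over all genes tested. Between resected and sham, edgeR called no member at either age after the filter on low counts. Without the filter it called Mt1 at P10, beside 76 of 28906 genes in all.

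Sod3, the secreted superoxide dismutase that is bound to extracellular matrix, was called in more comparisons than any other member. It lies on chromosome 5 (GRCm38, 52363791 to 52371418, plus strand). The P2 baseline libraries held 67.7, 45.4 and 79.9 CPM, the P2 sham +3 days libraries 99.8, 117 and 102 CPM, and the P2 resected +3 days libraries 161, 188 and 182 CPM. The P10 baseline libraries held 244, 347 and 346 CPM, the P10 sham +3 days libraries 420, 412 and 463 CPM, and the P10 resected +3 days libraries 510, 484 and 1103 CPM. In this order, each group lay wholly above the group before it. Sod3 was the only gene of the 16170 for which no neighbouring groups overlapped, whatever the order of the groups (0.00618% of genes), and this held with TMM scaling, with median-ratio size factors and with library totals alone. The pattern was noticed in the values themselves and is a description, with no test.

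**Figure D1:**
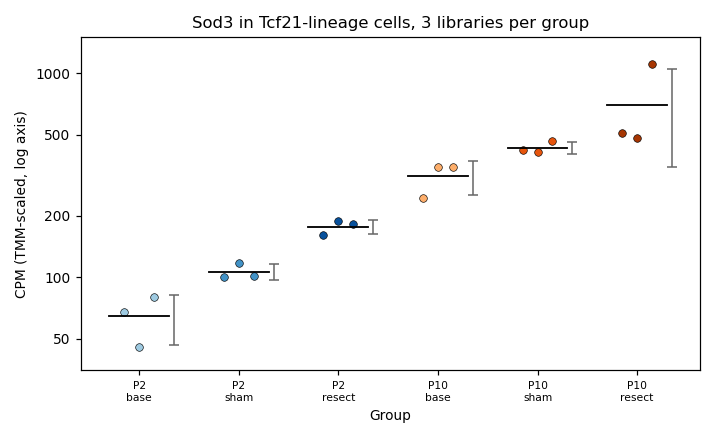
Sod3 in CPM on a log axis, with 1 point per library, a bar at the mean of each group and the SD of its 3 libraries beside it. The 6 groups do not overlap and run from 64.3 ± 17.5 CPM at P2 baseline to 699 ± 350 CPM in P10 resected +3 days.

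Sod3 rose between P2 and P10 groups of like treatment, in the baseline, sham and resected pairs. Its mean was 64.3 ± 17.5 CPM at P2 baseline and 312 ± 59.2 CPM at P10 baseline (SD, n = 3 each). The log2 fold change was 2.28 ± 0.30 (SE, edgeR adjusted p = 0.00031). After sham surgery the means were 106 ± 9.30 and 431 ± 27.6 CPM, and the log2 fold change was 2.02 ± 0.29 (edgeR adjusted p = 0.00078). After resection they were 177 ± 14.4 and 699 ± 350 CPM, and the log2 fold change was 1.98 ± 0.29 (edgeR adjusted p = 0.0026). Between the windows Sod3 rose by 2.09 on the log2 scale (95% confidence interval 1.74 to 2.45, edgeR adjusted p = 5.5e-07), which is a 4.27-fold difference. The comparison of the windows uses the libraries of all 3 pairs. Of all genes tested, 0.402% were called higher in all 4 of these comparisons. Without the third P10 resected +3 days library, the highest, the difference after resection was 1.503 and remained called.

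Sod3 was the only member called in the age comparisons taken singly by edgeR with the filter on low counts and all libraries. Of all genes, this fit called 4.38% in the baseline pair, 3.18% in the sham pair and 0.86% in the resected pair. Other settings called further members, and the numbers of genes called changed with the setting and the library left out, as given below. DESeq2 called 1 further member in each, Nqo1 at baseline, Gpx3 after sham surgery and Mt1 after resection. It called more genes in all, 1554, 1163 and 452 of 16102 in these pairs. The summed fibroblast markers moved the same way, from 39031 to 78141 CPM in the P2 window and from 68466 to 99680 CPM in the P10 window, with 4 of the 8 (Col3a1, Dcn, Lum and Gsn) called higher, beside 7.11% of all genes tested. The medians of this sum, 39239, 45468, 67547, 78670, 85752 and 96373 CPM, rose in the same order of groups as Sod3, though neighbouring groups overlapped at each step. Their part in the change of Sod3 was not tested.

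Resection gave a smaller difference in Sod3. All resected libraries lay above all sham libraries at both ages, which 0.6% of genes tested did. The log2 fold change was 0.74 at P2 (95% confidence interval 0.14 to 1.33) and 0.70 at P10 (0.10 to 1.29). Averaged over both ages it was 0.72 ± 0.20 (SE), with an unadjusted p of 0.0023 and an adjusted p of 0.53 by edgeR, so the gene was not called. The P10 value rested on the third resected library, and without it fell to 0.20, with an average over both ages of 0.46 (edgeR adjusted p = 0.82). The difference between the ages was -0.04 with all libraries (95% confidence interval -0.88 to 0.80) and uses that P10 value. The summed fibroblast markers were 45434 to 53723 CPM in the P2 sham and 50866 to 78141 CPM in the P2 resected libraries, and 70776 to 96730 CPM and 84835 to 99680 CPM at P10, and their part in the resection values was not tested. Sham against baseline, which also spans 3 days of growth, gave 0.72 at P2 and 0.47 at P10, neither called (0.0% and 0.00618% of all genes were). The P2 resection value and the P2 sham against baseline value share the sham libraries, and so do those at P10.

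The other superoxide dismutases were not called by edgeR in any comparison. Sod1 had a mean of 62.6 CPM in both windows, with single libraries between 43.0 and 104 CPM, and a log2 fold change of 0.01 (95% confidence interval -0.34 to 0.36). Sod2 had means of 70.9 ± 15.9 CPM in the P2 window and 91.5 ± 23.5 CPM in the P10 window (SD, n = 9 each). Its log2 fold change was 0.34 (95% confidence interval 0.01 to 0.68, edgeR adjusted p = 0.17). In the resected pair all P10 libraries lay above all P2 libraries, as for 10.6% of genes tested, with a log2 fold change of 0.65 (95% confidence interval 0.08 to 1.23, edgeR unadjusted p = 0.029 and adjusted p = 0.46). Its highest value, 144 CPM, was in the third P10 resected +3 days library, which also held the highest levels of Sod3, Gpx3, Mt1 and Mt2. Sod2 counts are uncertain, since 3110 bases of its exons match those of another annotated gene, Rps6ka2, at 98.3% identity. The intervals of Sod1 and Sod2 ended below that of Sod3, but the difference between genes was not tested.

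Gpx3, the secreted selenium-dependent glutathione peroxidase, was the most abundant of the 8 genes compared per length. Per kilobase of its principal transcript its mean level over the 18 libraries was 976 CPM, against 276 for Mt1, 97.7 for Sod1, 79.8 for Sod3, 50.7 for Cat, 33.9 for Txnrd1, 25.6 for Hmox1 and 4.17 for Nqo1. No level per kilobase is given for Sod2, whose counts are uncertain, or for Mt2, most of whose exon bases lie under an antisense gene. The P2 baseline libraries held 790, 778 and 1128 CPM of Gpx3, the P2 sham +3 days libraries 703, 1646 and 1143 CPM, and the P2 resected +3 days libraries 1072, 1287 and 1245 CPM. The P10 baseline libraries held 1019, 1717 and 1996 CPM, the P10 sham +3 days libraries 1802, 2318 and 2474 CPM, and the P10 resected +3 days libraries 1942, 1862 and 3076 CPM. The group means rose in the same order as those of Sod3, but neighbouring groups overlapped at each step. All P10 libraries lay above all P2 libraries in the sham pair, as 9.07% of genes tested did, and in the resected pair, as 10.6% did. At baseline they overlapped, and the first P10 library was low.

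Between the windows Gpx3 rose by 0.89 on the log2 scale (95% confidence interval 0.52 to 1.26, edgeR adjusted p = 0.0023), a 1.85-fold difference. The differences in the baseline, sham and resected pairs were 0.81, 0.92 and 0.93, none of them called alone by edgeR (adjusted p = 0.15, 0.13 and 0.23). Without the filter on low counts edgeR called all 3 (adjusted p = 0.043, 0.025 and 0.040), and DESeq2 called the sham pair (adjusted p = 0.047). Resection gave 0.05 at P2 and 0.06 at P10, with a 95% confidence interval of -0.40 to 0.50 for the average.

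Cat, the intracellular catalase, was the steadiest of the set. Its libraries ranged from 101 to 169 CPM, and the log2 fold change between the windows was 0.10 (95% confidence interval -0.17 to 0.37).

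**Figure D2:**
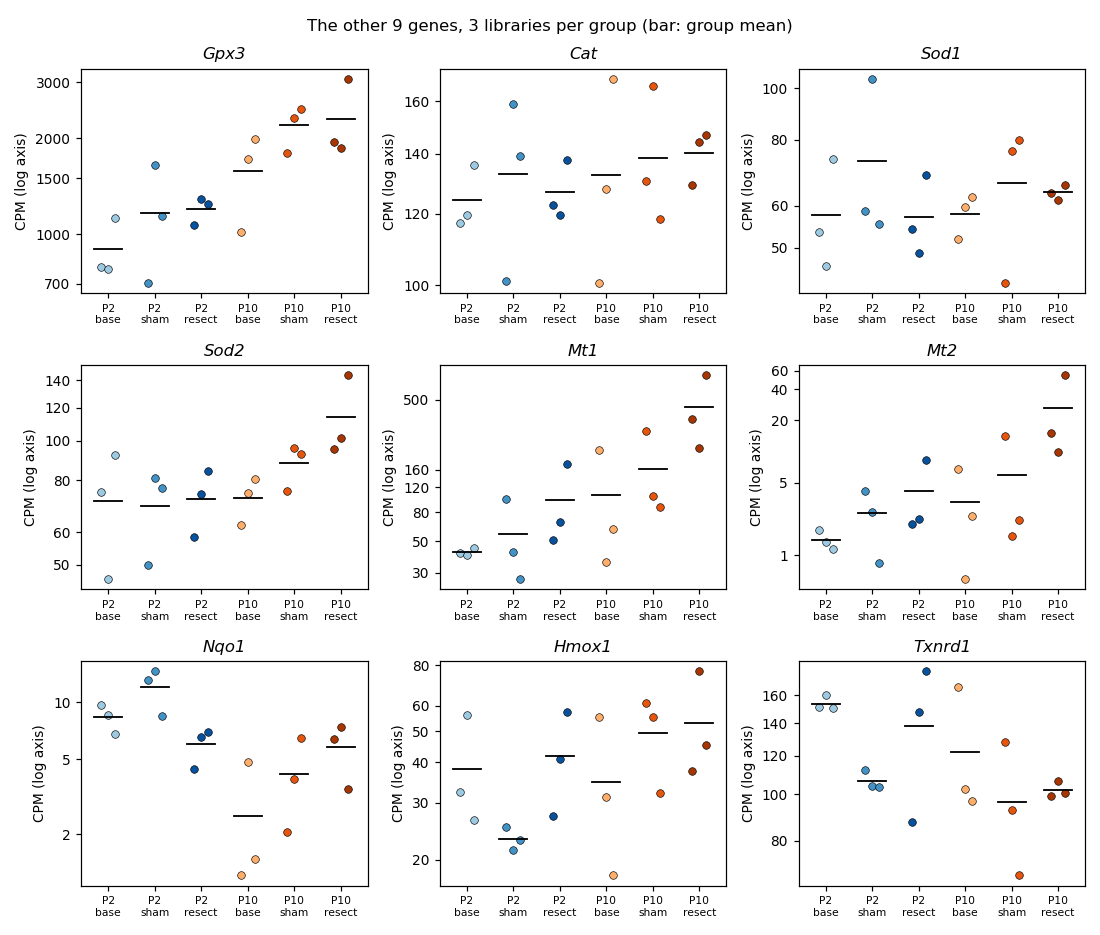
CPM of the 9 genes other than Sod3 on log axes, each with its own range, with 1 point per library and a bar at the mean of each group. Neighbouring groups overlap at each step for each of these genes when groups are ordered by their mean.

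The metallothionein genes Mt1 and Mt2 lie 5513 bases apart on chromosome 8, both on the plus strand. Their promoters are shown because they were the pair of members whose deviations from the group means were most strongly correlated. The sequences are the 250 bases before the RefSeq start on GRCm38.p6, at chr8:94172368-94172617 for Mt2 and chr8:94178839-94179088 for Mt1, and the capitals mark matches to the core of the metal response element, searched on both strands as TGCACNC or TGCGCNC.

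Mt2: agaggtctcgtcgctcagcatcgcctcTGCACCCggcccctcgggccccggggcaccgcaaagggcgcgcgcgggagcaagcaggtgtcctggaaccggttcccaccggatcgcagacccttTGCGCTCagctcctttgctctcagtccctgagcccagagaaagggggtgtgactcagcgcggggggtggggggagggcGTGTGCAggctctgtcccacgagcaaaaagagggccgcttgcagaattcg

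Mt1: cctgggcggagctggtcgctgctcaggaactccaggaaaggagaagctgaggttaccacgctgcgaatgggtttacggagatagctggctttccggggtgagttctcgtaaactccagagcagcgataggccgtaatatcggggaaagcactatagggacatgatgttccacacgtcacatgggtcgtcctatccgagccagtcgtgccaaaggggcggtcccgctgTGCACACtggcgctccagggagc

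Mt2 held 3 matches, starting 223, 128 and 50 bases before the start, and Mt1 held 1, at 23 bases. Of 32851 promoters of this length, 21.4% held at least 1 match and 1.26% at least 3. The core of the antioxidant response element, searched as TGACNNNGC on both strands, is held by 10.2% of promoters. It was found in Mt2, where it overlapped an AP-1 site (TGACTCA, or TGAGTCA on the other strand, in 4.46% of promoters), and in Sod1 and in the promoter of 1 of the Txnrd1 starts. Within the bases searched, it was not found in Nqo1, Cat, Gpx3, Sod2 or Mt1. Their absence from this stretch does not show that these genes lack the element. RefSeq promoters were used for 8 of the 10 genes. A match is a run of letters and not a measured binding site. Matches further upstream, or past the RefSeq start used, were not searched for. The numbers are thus no count of the elements of a gene and do not rank Mt2 above Mt1.

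Mt1 varied 27.5-fold across the libraries. The P2 baseline libraries held 41.1, 39.7 and 44.6 CPM, the P2 sham +3 days libraries 99.8, 42.3 and 27.0 CPM, and the P2 resected +3 days libraries 50.8, 68.4 and 176 CPM. The P10 baseline libraries held 220, 35.6 and 61.3 CPM, the P10 sham +3 days libraries 298, 104 and 87.4 CPM, and the P10 resected +3 days libraries 365, 226 and 744 CPM. A single library stood high in the P2 sham, P2 resected, P10 baseline and P10 sham groups, and the P2 baseline libraries lay close together.

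Between the windows Mt1 rose by 1.68 on the log2 scale (95% confidence interval 0.85 to 2.52, edgeR adjusted p = 0.0078), a 3.21-fold difference in the fit. The difference was 1.34 in the baseline pair, 1.53 in the sham pair and 2.18 in the resected pair, and none of the 3 was called alone by edgeR after the filter on low counts. DESeq2 called the resected pair (adjusted p = 0.028), and edgeR without the filter called all 3 (adjusted p = 0.0010, 9.8e-05 and 2.1e-08). All P10 libraries lay above all P2 libraries in the resected pair, as 10.6% of genes tested did. Without the first P10 baseline library the baseline difference was 0.21, and without the first P10 sham library the sham difference was 0.76.

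Resected against sham gave log2 fold changes for Mt1 of 0.80 at P2 (95% confidence interval -0.61 to 2.21) and 1.45 at P10 (0.02 to 2.88), and an average of 1.12 with an unadjusted p of 0.030 and an adjusted p of 0.78 by edgeR. Without the filter on low counts edgeR called the P10 value (adjusted p = 0.0049) and the average (adjusted p = 0.00071). In that fit 76 and 96 of 28906 genes were called in these comparisons. Sham and resected libraries overlapped at both ages. Leaving out 1 library at a time moved the P10 value between 0.84, without the third resected library, and 2.22, without the first sham library. It moved the P2 value between 0.08, without the third resected library, and 1.51, without the first sham library.

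Mt2 gave low counts, 11 to 703 per library, against 414 to 9578 for Mt1. The P2 baseline libraries held 1.75, 1.35 and 1.16 CPM, the P2 sham +3 days libraries 4.18, 2.63 and 0.85 CPM, and the P2 resected +3 days libraries 1.99, 2.22 and 8.37 CPM. The P10 baseline libraries held 6.73, 0.59 and 2.37 CPM, the P10 sham +3 days libraries 14.2, 1.55 and 2.17 CPM, and the P10 resected +3 days libraries 15.2, 9.85 and 54.6 CPM. The library that stood high in a group was the same as for Mt1 in each of the 6 groups but P2 baseline, and the correlation of the 2 genes' deviations from their group means was 0.94 over 18 libraries (Pearson's r, with 0.93 for Spearman's rho). Counts of both genes come from the same libraries, so this is a description only. The first sham library at P2 and at P10, the first P10 baseline library and the third resected library at both ages held the peaks. The first 3 of these also stood apart over all genes. Their chi-square per gene against the other libraries of the group was 318 and 185 in the P2 sham group, where those differed by 81.9, 173 and 175 at P10 baseline, against 37.4, and 160 and 172 in the P10 sham group, against 37.6. The third resected libraries did not stand apart in this way, with 73.3 and 48.7 at P2 and 69.6 and 84.3 at P10, where the others differed by 72.7 and 50.03.

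**Figure D3:**
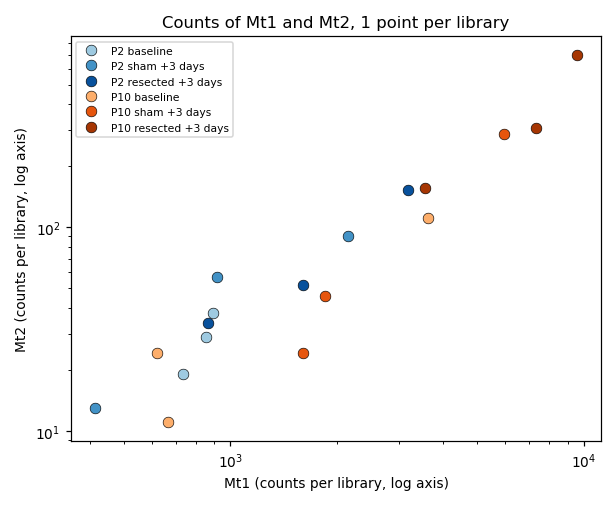
Counts of Mt1 and Mt2 on log axes, 1 point per library, coloured by group. The points run together from 414 Mt1 and 13 Mt2 counts in a P2 sham +3 days library to 9578 and 703 in a P10 resected +3 days library.

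Between the windows Mt2 gave a log2 fold change of 1.69 (95% confidence interval 0.51 to 2.87), with an edgeR adjusted p of 0.055, and was not called. With DESeq2 it was called (adjusted p = 0.012). The counting limits what Mt2 can show, since an antisense gene, Gm45774, covers 432 of its 588 exon bases on the other strand and reads were counted without regard to strand. By default the counter leaves out reads that overlap more than 1 gene, so reads within the 156 remaining bases carry the Mt2 count. The ratio of Mt1 to Mt2 counts, between 13.6 and 67.0 per library with a median of 25.7, is therefore no measure of the ratio of their transcripts. Resected against sham gave 0.71 at P2 (95% confidence interval -1.30 to 2.72) and 2.14 at P10 (0.09 to 4.20), neither called. Leaving out 1 library at a time moved the P10 value between 1.04, without the third resected library, and 3.83, without the first sham library. The P2 value turned to -0.28 without the third resected library and was 1.26 without the first sham library.

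The levels of 10 dissociation stress genes, such as Fos and Jun, were followed beside the metallothioneins because digestion lasted longer for the older hearts. Their summed level was 3337 to 7855 CPM in the P2 window and 6826 to 14217 CPM in the P10 window, and 5 of the 10 were called higher, beside 7.11% of all genes tested. Over the 18 libraries the correlation of their summed level with the metallothioneins, as deviations from group means, was 0.42 for Mt1 and 0.45 for Mt2 (Pearson's r). Their part in the difference between the windows was not tested, and age and digestion time cannot be told apart.

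Nqo1, which reduces quinones and is a standard readout of Nrf2 activity, was low throughout and went the other way. The P2 baseline libraries held 9.71, 8.61 and 6.82 CPM, the P2 sham +3 days libraries 13.1, 14.6 and 8.42 CPM, and the P2 resected +3 days libraries 4.46, 6.58 and 6.94 CPM. The P10 baseline libraries held 1.21, 4.82 and 1.48 CPM, the P10 sham +3 days libraries 2.05, 3.95 and 6.51 CPM, and the P10 resected +3 days libraries 6.36, 7.44 and 3.50 CPM. The lower level of the P10 groups was seen at baseline, where all P10 libraries lay below all P2 libraries as in 12.1% of genes tested, and after sham surgery, as in 7.61%. It was not seen after resection.

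Nqo1 fell by 1.11 on the log2 scale between the windows (95% confidence interval -1.80 to -0.41, edgeR adjusted p = 0.034), which is 2.15-fold lower. The difference was -1.73 in the baseline pair, -1.53 in the sham pair and -0.05 in the resected pair, none called alone by edgeR, whereas DESeq2 called the baseline pair (adjusted p = 0.029). Without the second P10 baseline library the baseline value was -2.64 and was called (edgeR adjusted p = 0.048), and without the first it was -1.40. All P2 resected libraries lay below all P2 sham libraries, with a log2 fold change of -1.01 (95% confidence interval -2.21 to 0.19). At P10 the value was 0.47, with 0.14 without the first sham library and 0.95 without the third, and the resection effects of the 2 ages differed by 1.48 (95% confidence interval -0.22 to 3.17), not called. Counts of Nqo1 were 15 to 316 per library, and the call between the windows was lost when any of 10 libraries was left out.

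Hmox1, the inducible haem oxygenase, and Txnrd1, the cytosolic thioredoxin reductase, were not called by edgeR in any comparison. Hmox1 held 25.2, 21.4 and 22.97 CPM in the P2 sham +3 days libraries, below the P2 resected +3 days libraries at 27.2, 40.8 and 57.2 CPM, a log2 fold change of 0.85 (95% confidence interval -0.03 to 1.73). The P2 baseline libraries held 32.3, 56.1 and 26.5 CPM and also lay wholly above the P2 sham +3 days libraries, which 5.47% of genes tested did, so the sham group was the low one of the 3. Its log2 fold change from baseline was -0.72 (95% confidence interval -1.61 to 0.16). All P10 sham +3 days libraries, at 61.2, 55.1 and 32.2 CPM, lay above it too, as in 9.07% of genes tested, with a log2 fold change of 1.09 between the ages (0.21 to 1.98, edgeR adjusted p = 0.20). At P10 the sham and resected libraries overlapped, and the value was 0.10 (-0.77 to 0.98). Macrophages also express Hmox1, and the summed macrophage markers were 7.76 to 210 CPM in the P2 sham and 76.8 to 480 CPM in the P2 resected libraries. The part of these cells in the Hmox1 values was not tested. Txnrd1 ranged from 67.9 to 179 CPM, with a log2 fold change between the windows of -0.31 (95% confidence interval -0.64 to 0.03). Its P2 sham +3 days libraries, at 112, 104 and 104 CPM, also lay wholly below the P2 baseline libraries, at 151, 160 and 150 CPM. They overlapped the P2 resected +3 days libraries, at 87.4, 148 and 179 CPM. The difference of Hmox1 between the windows was 0.43 (-0.07 to 0.94).

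**Figure D4:**
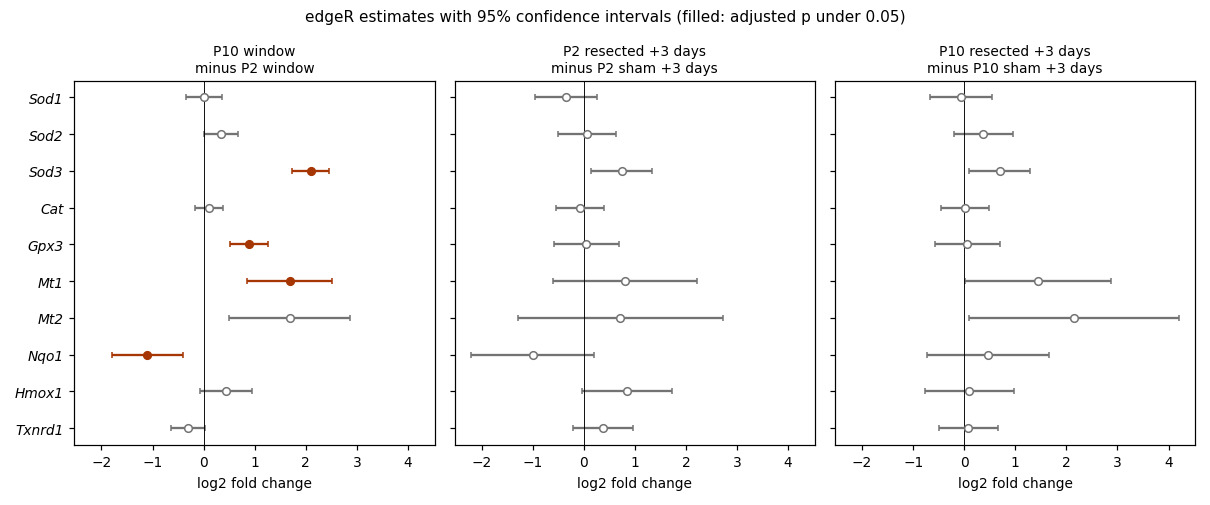
Log2 fold changes of the 10 genes with 95% confidence intervals from edgeR, between the windows and between resected and sham at each age, with filled points for genes called. Sod3, Gpx3, Mt1 and Nqo1 are filled in the first panel, at 2.09, 0.89, 1.68 and -1.11, and no point is filled in the other panels.

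Resection was compared with sham in all 10 genes. After the filter on low counts, edgeR called 0 members at P2 and 0 at P10, as it did of all genes tested (0.0% at each age). DESeq2 called 0 members, with 25 genes of the whole table at P2 and 41 at P10. Without the filter edgeR called Mt1 at P10, with 24 genes of the whole table at P2 and 76 at P10. At an unadjusted p under 0.05 there was 1 member at P2, Sod3, where 4.51% of all genes passed, and there were 3 at P10, Sod3, Mt1 and Mt2, where 4.09% did. Libraries did not overlap in 3 members at P2 (Sod3 and Hmox1 higher, Nqo1 lower), beside 5.62% of all genes higher and 2.85% lower. They did not overlap in 1 member at P10 (Sod3 higher), beside 5.63% of all genes higher. The median log2 fold change of the 10 genes was 0.22 at P2 and 0.24 at P10, and that of all genes tested was 0.00 and 0.02.

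The other genes of the redox system were described by a list of 64 genes chosen by function, all of which were tested. In the P10 window 12 of them were called higher (18.8% of the list) and 2 lower (3.12%), beside 7.11% and 6.39% of all genes tested. The median log2 fold change of the list was 0.21. After the filter on low counts, edgeR called no gene of the list between resected and sham at either age.

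Glutathione transferases, which couple glutathione to electrophiles, supplied 3 of the genes called, out of 9 listed, beside 7.11% of all genes tested. Gstt1 had means of 6.12, 17.7 and 13.9 CPM in the P2 baseline, sham and resected groups and of 41.9, 71.6 and 69.0 CPM in the P10 groups. Its log2 fold change was 2.37 ± 0.28 (SE, edgeR adjusted p = 2.1e-05), the largest of the 14 genes called, and it was also called in each of the baseline, sham and resected pairs. Mgst1, the microsomal transferase, rose by 1.38, with means of 11.7 CPM at P2 baseline and 12.4 CPM at P10 baseline and of 81.1 and 97.5 CPM in the sham and resected groups collected at P13. Gstm1 rose by 0.79. For Gstm1 the baseline groups had means of 310 CPM at P2 and 295 CPM at P10, so the difference lay in the groups collected at P5 and P13. Transferase genes have close relatives, and reads that fit several genes are left out by default, which makes these counts uncertain.

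Xdh, whose enzyme makes superoxide and hydrogen peroxide while it forms uric acid, rose by 2.02 ± 0.43 on the log2 scale between the windows (SE, edgeR adjusted p = 0.0040). Its mean at P10 baseline was 15.3 CPM, below the 30.1 CPM at P2 baseline, and the rise came with the groups collected at P13, which had means of 255 and 247 CPM after sham surgery and resection. Ggt5, which breaks down glutathione conjugates outside the cell, rose by 1.46, with 29.3 CPM at P10 baseline and 67.5 and 97.6 CPM at P13.

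Of 12 thioredoxin and glutaredoxin genes, 2 were called higher, beside 7.11% of all genes tested, and the other 10, Txn1 and Txn2 among them, were not called. Txnip, which binds and inhibits thioredoxin, rose by 0.93, and Srxn1, which restores oxidised peroxiredoxins, by 0.62. Sqstm1, an adaptor that can release Nrf2 from Keap1, rose by 0.77, and Nfe2l1, a relative of Nrf2, by 0.50. Fth1, the heavy chain of the iron store ferritin, rose by 0.71, though mouse pseudogenes of ferritin can take part of its reads. Selenop, a secreted selenium carrier, rose by 0.63 and Pgd, an enzyme of NADPH supply, by 0.49.

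The 2 genes called lower in the P10 window were Gsr and Prdx4. Gsr, glutathione reductase, fell by 0.74 on the log2 scale and had means of 68.3, 53.7 and 58.9 CPM in the P2 groups and 32.4, 32.2 and 44.1 CPM in the P10 groups. Prdx4, the peroxiredoxin of the endoplasmic reticulum, fell by 0.63.

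**Figure D5:**
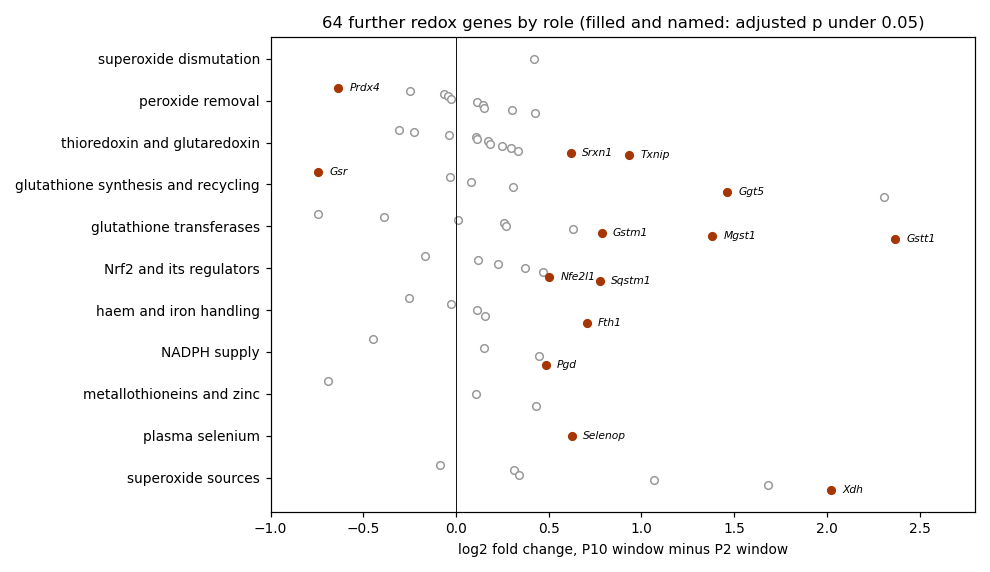
Log2 fold changes between the P10 and P2 windows of 64 further redox genes, 1 point per gene, grouped by role, with filled and named points for the 14 called. Called points lie between 0.49 and 2.37 on the higher side, and Gsr and Prdx4 lie at -0.74 and -0.63.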

How the data were processed

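RNA was read from GFP+ cells in 18 libraries. Per the labels and the methods, the authors trimmed reads with fastp 0.20.0, mapped them with STAR 2.7.0f to GRCm38.p6 and counted reads on exons by gene name with featureCounts (Subread 1.6.4), without strand. The deposited counts are whole numbers, not normalized, of 10462737 to 22980554 per library, and all 18 columns were used.

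Tests used edgeR 4.0.16 (R 4.3.3). Genes passed filterByExpr (minimum count 10, minimum total 15), libraries were scaled by TMM, and all 18 libraries entered a quasi-likelihood model with a mean for each group. Adjusted p-values (Benjamini-Hochberg) under 0.05 were called. The tests were run on simulated data first. Alternatives were DESeq2 1.42.0, median-ratio size factors, no filter, the compared groups alone, a replicate block, and each library left out.

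The members and lists were chosen with earlier results of these data known. All 10 members are named, as are genes of the redox list called between the windows. Gene positions came from GENCODE. Replicates differed beyond sampling noise (chi-square per gene 36.7 to 318), so none was counted as the same library deposited again, though technical repeats of a sample could differ as much. The replicate numbers come from the labels, which do not say that they pair libraries. Deviations of same-numbered libraries had correlations of 0.121 to 0.189 for P10 against P2 after resection. They were 0.107 to 0.328 for sham against baseline at P10, and 0.037 to 0.291 for P10 against P2 after sham surgery. Differently numbered libraries reached -0.03, 0.193 and 0.129 in the same order. The numbers were therefore used only in the replicate block, as an alternative.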

Additional observations from a re-analysis of the deposited data

How the results depend on the processing

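Sod3, Gpx3 and Mt1 were called between the windows with DESeq2, with median-ratio size factors, with no filter, with the replicate block and without each library, with log2 fold changes of 1.94 to 2.16, 0.80 to 1.01 and 1.31 to 1.92. Nqo1 lost its call with no filter (edgeR adjusted p = 0.090) and without replicate 1 or 2 of P2 baseline, 2 of P2 sham, 2 or 3 of P2 resected, 3 of P10 baseline, 1 or 2 of P10 sham, or 1 or 3 of P10 resected (edgeR adjusted p = 0.056 to 0.079). Mt2 gained a call with DESeq2 (adjusted p = 0.012), with no filter (edgeR adjusted p = 0.00072) and without replicate 1 of P2 sham, 3 of P2 resected, 2 of P10 baseline, or 2 or 3 of P10 sham (edgeR adjusted p = 0.036 to 0.048). Libraries left out in turn gave 3 to 5 members and 12 to 16 genes of the redox list, and the other settings 4 to 5 and 13 to 17. The settings other than DESeq2 for the redox list were chosen after seeing the data.

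With no filter on low counts, 1 member was called for resection at P10 and 1 for its average over both ages (Mt1 in each), 3 at baseline and 3 after sham surgery (Gpx3, Mt1 and Sod3), and 4 after resection (those and Mt2). That fit tested 28906 genes and called 24 of them for resection at P2, 76 at P10 and 96 for the average. DESeq2 called 2 at baseline (Nqo1 and Sod3), 2 after sham surgery (Gpx3 and Sod3) and 2 after resection (Mt1 and Sod3). The replicate block called 2 after sham surgery (Gpx3 and Sod3) and changed no other count of members. The fit of the compared groups alone was not run between the windows. The block was part of a fit of all libraries and so entered each comparison, though the labels do not say that the replicate numbers pair libraries. Libraries left out in turn gave 1 to 2 members at baseline (2 without the first or the second P10 baseline library) and 1 to 2 after sham surgery (2 without the second P2 sham library). The cause was not tested.

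Over all genes, 709 were called at baseline by edgeR, 1554 by DESeq2 and 1155 with no filter, 515, 1163 and 911 after sham surgery, and 139, 452 and 526 after resection. The fit of the compared groups alone called 295 genes in the baseline pair, 125 in the sham pair and 332 in the resected pair. In that fit the resected pair held the most calls, not the baseline pair. Leaving out 1 library at a time gave 264 to 1207 calls for the baseline pair. It gave 312 to 416 for the sham pair and 30 to 136 for the resected pair. The differences of Mt2 after sham surgery (1.22) and for resection at P2 (0.71) changed sign without a single library, with ranges of -0.46 to 1.77 and -0.28 to 1.26. Values near 0 that changed sign were those of Sod1 between the windows (-0.047 to 0.14), Nqo1 after resection (-0.28 to 0.22) and Hmox1 for resection at P10 (-0.26 to 0.30). Low counts of Mt2 and Nqo1 limit what their differences can show.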

Other observations

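The genes whose levels moved most like those of the members were listed by the correlation of deviations from group means over the 18 libraries, as a description. For Sod3 they were Trnp1 (r = 0.88) and Srpx (0.87), for Gpx3 Dtnbp1 (0.96) and Tmem45a (0.95), and for Sod2 Oat (0.96) and Ldha (0.94). For Mt1 they were Gem (0.95) and Tiparp (0.94), both known as genes that are induced quickly by stimuli, and for Mt2 the first was Mt1 itself. Hmox1 moved most like Add3 (0.93) and Txnrd1 most like Gla (0.87). Among the members, Sod3 deviated with Sod2 (r = 0.78) and Gpx3 (0.71), whereas Mt1 deviated with Txnrd1 (0.73) and hardly with Sod3 (0.09).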
